A study of Homo sapiens with 10 samples.

Results

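The genes from KLK5 to KLK13 encode 9 kallikrein-related peptidases, which are secreted serine proteases, and lie side by side on the minus strand of chromosome 19 (hg19, 51446559 to 51568367, a span of 122 kb). The members were found by their gene symbols, KLK5, KLK6, KLK7, KLK8, KLK9, KLK10, KLK11, KLK12 and KLK13, and make up 9 of the 26256 genes counted in one RNA-seq experiment and 9 of the 55736 genes counted in the other. The first experiment compared MCF10A cells, an immortalised and non-transformed human mammary epithelial line, with G12V cells, which are MCF10A cells that received the HRas oncogene with the G12V change (2 libraries each). The oncogene was delivered by a lentivirus together with a GFP vector, and carriers were selected with hygromycin, so G12V cells are a selected and regrown population, and no cells with an empty vector were analysed here. In the second experiment MCF10A cells were kept for 4 h with 10 µM Nutlin-3a, an inhibitor of the binding of MDM2 to p53, or with the solvent DMSO (3 libraries each). All cells grew in medium with EGF, insulin, hydrocortisone, cholera toxin and horse serum.

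Kallikrein-related peptidases are made as inactive precursors, secreted, and switched on when another protease removes a short propeptide. In squamous epithelia KLK5, a trypsin-like enzyme, activates itself and other kallikreins, KLK7 is the chymotrypsin-like enzyme of the family, and both cleave the desmosomal proteins that hold the outermost cells together, while the inhibitor encoded by SPINK5 restrains them. KLK10 was first described as a gene expressed in normal mammary epithelial cells and low in breast tumour lines, under the name NES1 (normal epithelial cell-specific).

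The promoters of KLK5, KLK7 and KLK10, the members with enough reads to be tested, are shown because these genes fell together in G12V cells. Each is the stretch of 250 bases before the annotated start of the gene, read on the minus strand of hg19, at chr19:51456345-51456594 for KLK5, chr19:51487321-51487570 for KLK7 and chr19:51523432-51523681 for KLK10. Capitals mark matches to GGGCGG, the GC box, on either strand.
KLK5: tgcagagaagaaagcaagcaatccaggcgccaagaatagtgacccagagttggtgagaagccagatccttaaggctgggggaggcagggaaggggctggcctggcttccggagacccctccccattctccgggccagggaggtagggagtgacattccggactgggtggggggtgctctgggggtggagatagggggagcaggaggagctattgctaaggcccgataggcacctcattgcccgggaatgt
KLK7: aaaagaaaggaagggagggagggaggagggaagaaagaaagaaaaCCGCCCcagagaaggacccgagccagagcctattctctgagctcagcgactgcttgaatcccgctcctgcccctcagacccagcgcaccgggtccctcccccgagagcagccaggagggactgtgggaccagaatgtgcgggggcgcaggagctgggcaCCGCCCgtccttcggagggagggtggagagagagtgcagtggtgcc
KLK10: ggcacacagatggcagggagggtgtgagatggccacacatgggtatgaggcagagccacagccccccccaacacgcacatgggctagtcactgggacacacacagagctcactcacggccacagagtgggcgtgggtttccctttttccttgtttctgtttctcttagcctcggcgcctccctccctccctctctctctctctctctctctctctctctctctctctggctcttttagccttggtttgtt

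The promoters shared few of the short motifs that were searched on both strands. KLK7 held the GC box at 46 and 205 bases before its start, and KLK5 and KLK10 did not hold it in this window. Among the 9 members the GC box was found in KLK6, KLK7, KLK8 and KLK9, against 44.1% of 25945 gene promoters of the same length. The AP-1 motif TGANTCA (5.81% of all promoters) and a half-site of the p53 motif (5.19%) matched none of the 9. The TATA motif TATAA (18.5%) matched KLK11, and the E-box CAGGTG (18.9%) matched KLK6 and KLK12. The GC content was 61.2% for KLK5, 64.0% for KLK7 and 57.2% for KLK10, against a median of 58.4% over all promoters. These matches describe letters in a window, and they are not binding sites.

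The libraries held 21538593 to 23683975 counted reads in the first experiment and 15453226 to 17378734 in the second, and no library was a copy of another. HRAS rose in G12V cells from 69.3 ± 4.77 to 573 ± 82.0 CPM (read counts scaled to library size, SD, n = 2), and MDM2, a p53 target, rose with Nutlin-3a from 113 ± 10.3 to 656 ± 153 CPM (SD, n = 3), in the direction that the labels give. The basal epithelial markers were high in MCF10A cells, at 10154 and 10884 CPM summed over 7 genes, and lower in G12V cells, at 2268 and 4717 CPM, where 6 of the 7 fell. LAMB3 went the other way, from 1137 ± 104 to 2286 ± 1524 CPM (SD, n = 2 each). It did not pass (log2 fold change 1.01, adjusted p = 0.274), and it held most of the sum in G12V cells. Of the 5 general epithelial markers 4 were tested and 2 fell, CDH1 and EPCAM, and the sum was 786 and 807 CPM in MCF10A against 425 and 441 CPM in G12V cells, while KRT18 (log2 fold change -0.71, adjusted p = 0.0684) and KRT8 (0.18, 0.661) did not pass. Of the 7 fibroblast markers LUM rose and the sum was 811 and 1036 CPM in MCF10A against 1283 and 1686 CPM in G12V cells, most of it VIM, which did not pass (log2 fold change 0.71, adjusted p = 0.178). COL1A1 did not pass either (-1.14, 0.166), and COL3A1 had no reads and COL1A2 had at most 1 read in a library. Of the 4 leukocyte markers CD68 rose and the sum was 30.4 and 49.1 CPM against 59.0 and 112 CPM, while PTPRC and CD3E had at most 1 read in a library. Of the 3 endothelial markers none was called, and their sum lay between 1.68 and 3.68 CPM. In the second experiment the replicate 1 libraries of both treatments stood apart from the others in the kallikrein reads, which is described with those reads.

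In the first experiment kallikrein RNA was low in MCF10A cells and lower still in G12V cells. Summed over the 9 members, the MCF10A libraries held 302 and 169 reads, or 13.7 CPM (95% Poisson interval 12.2 to 15.4) and 7.44 CPM (6.36 to 8.65). The G12V libraries held 13 and 10 reads, or 0.556 CPM (0.296 to 0.951) and 0.446 CPM (0.214 to 0.820). These intervals cover counting error only, and the 2 MCF10A libraries differed from each other by more than that error. Fewer cells that express a gene and less of its RNA per cell cannot be told apart in such bulk samples. Only KLK5, KLK7 and KLK10 passed the filter on low counts, and all 3 fell in G12V cells, where 5.95% of the 14376 tested genes fell. They passed it through their reads in MCF10A cells, so a fall was nearly the only call open to them. That all 3 fell is therefore not a result about the cluster as a set. KLK14, the inhibitor gene SPINK5 and the substrate gene CDSN, described below, also passed the filter through MCF10A cells. A gene is said to rise or fall where the adjusted p of edgeR's quasi-likelihood test was under 0.05 and the log2 fold change exceeded 0.5 in size, which 11.0% of the tested genes did. The median log2 fold change over all tested genes was -0.0011.

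KLK5, which starts the activation of other kallikreins, had 49 and 11 reads in the MCF10A libraries and none in either G12V library. The levels were 2.23 and 0.484 CPM in MCF10A cells, a mean of 1.36 ± 1.23 CPM (SD, n = 2), so the first library held most of the signal. The groups did not overlap, and KLK5 was at least 10.3-fold lower in G12V cells when 3 counts per library are taken as the limit for a count of 0. This bound was 3.70-fold without MCF10A replicate 1 and 17.0-fold without MCF10A replicate 2. The adjusted p was 0.0493, close to the threshold. It was 0.0545 without a filter on low counts and 0.0530 with upper-quartile factors, and it ran from 3.06e-05 to 0.0545 over the alternatives in which KLK5 was tested. KLK5 was not tested under the CPM filter or without MCF10A replicate 1. A stretch of KLK5 overlaps an antisense gene: 9.52% of the 50-base windows of its transcripts occur there in reverse, and the strand setting of the counting is not given in the sources used here.

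KLK7, the chymotrypsin-like member, varied less between replicates than KLK5 and KLK10. It had 74 and 85 reads in MCF10A cells (3.36 and 3.74 CPM) and 8 and 9 reads in G12V cells (0.342 and 0.401 CPM). Both libraries of a group lay close together and the groups were far apart. The means were 3.55 ± 0.269 and 0.372 ± 0.0420 CPM (SD, n = 2 each), so KLK7 was 9.44-fold lower in G12V cells. On the log2 scale the difference was -3.24 (SE 0.41, 95% interval -4.23 to -2.25, adjusted p = 0.00743). KLK7 still had reads in both G12V libraries.

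KLK10, the gene named for normal epithelial cells, had the most reads of the cluster. The MCF10A libraries held 170 and 67 reads (7.73 and 2.95 CPM), and the G12V libraries held 4 reads (0.171 CPM) and none. As for KLK5, the first MCF10A library was the higher, and the groups did not overlap. The means were 5.34 ± 3.38 and 0.0855 ± 0.121 CPM (SD, n = 2 each), and the log2 fold change was -5.85 (SE 0.98, 95% interval -8.24 to -3.46, adjusted p = 0.0172). Its size rested on the few reads in G12V cells: the ratio of the summed counts was 60.7, with a 95% counting interval of 23.4 to 225, and the log2 fold change was -9.90 without G12V replicate 1. The adjusted p of KLK10 over the alternatives ran from 1.06e-08 to 0.153.

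Non-overlapping groups with MCF10A cells on top were common, at 27.4% of the tested genes. The fit was also run without MCF10A replicate 1. Without it none of the members was called, and neither was any other gene of the experiment, and the cause was not tested. KLK7 then had a log2 fold change of -3.29 (adjusted p = 0.0997) and KLK10 of -4.97 (adjusted p = 0.153), and KLK5 no longer passed the filter. Without MCF10A replicate 2, or without either G12V library, all 3 were called.

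**Figure D1:**
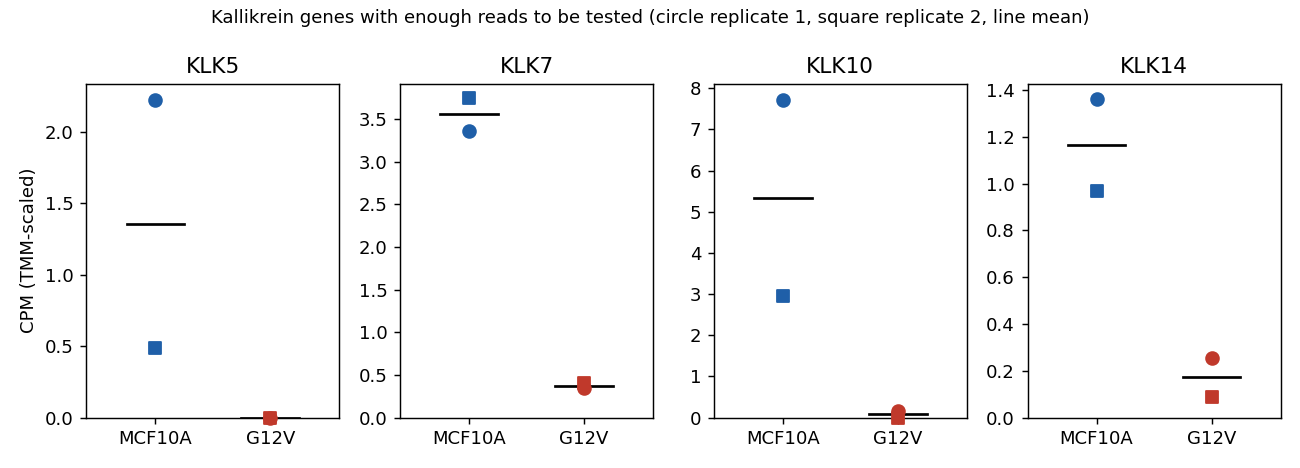
Level of KLK5, KLK7, KLK10 and KLK14 in CPM (y axis, from 0, each panel with its own scale) in the MCF10A (blue) and G12V (red) libraries; a circle is replicate 1, a square replicate 2 and the line their mean. Every MCF10A point lies above both G12V points, and MCF10A replicate 1 is higher than replicate 2 for KLK5 (2.23 against 0.484 CPM) and KLK10 (7.73 against 2.95 CPM) but not for KLK7 (3.36 against 3.74 CPM).

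The other 6 members had too few reads for a test. KLK8, a trypsin-like protease also known as neuropsin, had 5 reads in each MCF10A library and 1 in each G12V library, a ratio of 5.12 with a 95% counting interval of 1.09 to 48.1. KLK9 had 2 reads and none in MCF10A cells and none in G12V cells. KLK8 and KLK9 cannot be separated with confidence, because 42.5% of the windows of KLK8 and 99.2% of those of KLK9 also occur in the other gene or in a gene model that runs through both. KLK6 had 1 read in MCF10A replicate 1 and KLK11 had 1 read in each MCF10A library, and neither had a read in G12V cells. KLK12 and KLK13 had no reads in any of the 4 libraries, which allows a mean of up to 0.134 CPM in MCF10A and 0.131 CPM in G12V cells. When every gene with a read was tested, 7 members entered, all with negative fold changes, and KLK7 and KLK10 were called.

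Per kilobase of exon, KLK7 led in MCF10A cells with 1.45 ± 0.110 CPM per kb (SD, n = 2), followed by KLK10 with 1.41 ± 0.889, KLK5 with 0.820 ± 0.745 and KLK8 with 0.120 ± 0.00267. KLK7 and KLK10 did not differ beyond their spread, nor did KLK10 and KLK5. The lower KLK7 library (1.37) lay just above the higher KLK5 library (1.35), and all libraries of these 3 genes lay above those of KLK8. KLK9, KLK11 and KLK6 followed at 0.0315, 0.0144 and 0.0115 CPM per kb, from 1 or 2 reads each. In G12V cells KLK7 still led, at 0.152 ± 0.0171 CPM per kb, ahead of KLK8 at 0.0234 and KLK10 at 0.0225, and the other 6 members were at 0. The exon lengths came from GENCODE, and KLK9 and KLK11 traded places when the longest coding transcript was used.

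Of the 6 kallikrein genes outside the KLK5 to KLK13 stretch, KLK14 alone had enough reads to be tested. KLK14, a trypsin-like protease whose gene lies just beyond KLK13, had 30 and 22 reads in MCF10A cells and 6 and 2 in G12V cells. Its level went from 1.17 ± 0.279 to 0.173 ± 0.118 CPM (SD, n = 2 each), or -2.70 on the log2 scale (SE 0.60, adjusted p = 0.0413). The call was lost with DESeq2 (adjusted p = 0.0578), without a filter (0.0565) and when any library but G12V replicate 1 was left out, and its adjusted p ran up to 0.244 over the alternatives. KLK4 had 8 and 5 reads in MCF10A cells against 2 and 0, and KLK1 had 4 and 6 against 2 and 5. KLK2, KLK3 and KLK15 had none.

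The enzymes that act on kallikreins also differed between the cells. Of the 7 genes for activating proteases and their inhibitors, 4 were tested and 3 fell in G12V cells, with a median log2 fold change of -2.02. Of all tested genes 5.95% fell. ST14 encodes matriptase, a membrane protease that can activate prokallikreins, and had 237 and 255 CPM in MCF10A cells against 5.22 and 5.80 CPM in G12V cells. That is 44.6-fold lower (log2 fold change -5.48, SE 0.21, adjusted p = 0.000452), and the libraries of each group agreed closely. SPINT2, an inhibitor of matriptase, went from 458 ± 86.8 to 74.8 ± 31.1 CPM (SD, n = 2 each; log2 fold change -2.61, SE 0.35, adjusted p = 0.00872). PLAU, the urokinase that forms plasmin, went from 87.7 ± 10.8 to 32.8 ± 10.6 CPM (SD, n = 2 each; log2 fold change -1.42, SE 0.27, adjusted p = 0.0256). SPINT1, the other matriptase inhibitor of the list, did not pass, with a log2 fold change of -0.92 (95% interval -1.76 to -0.08, adjusted p = 0.161). PLG, HPN and PRSS3 had at most 4 reads in a library.

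Inhibitors of secreted serine proteases showed no common direction. Of 10 genes, 8 were tested, 2 fell and none rose, with a median log2 fold change of -0.27. Of all tested genes 5.95% fell and 5.01% rose. SPINK5, whose product LEKTI inhibits KLK5 and KLK7, had 37 and 43 reads in MCF10A cells and 0 and 2 in G12V cells. The ratio of its counts was 41.0 (95% counting interval 11.0 to 344), and the log2 fold change was -5.19 (SE 0.79, adjusted p = 0.0131). SLPI, a secreted leukocyte protease inhibitor, went from 91.0 ± 4.55 to 23.8 ± 7.57 CPM (SD, n = 2 each; log2 fold change -1.93, SE 0.26, adjusted p = 0.00928). SERPINA5, the protein C inhibitor, was higher in both G12V libraries, at 5.17 and 14.9 CPM against 1.95 and 3.74 CPM, but did not pass (log2 fold change 1.81, 95% interval 0.35 to 3.28, adjusted p = 0.121). It was the single partner gene with a higher level and an unadjusted p under 0.05 from edgeR's quasi-likelihood test, and it was called with DESeq2, edgeR's exact test, the replicate block and without G12V replicate 1 (adjusted p 0.000609 to 0.0296). A2ML1 (log2 fold change -1.47, adjusted p = 0.191), PI3 (-0.73, 0.292), SERPINB6 (0.29, 0.381), SERPINA3 (0.35, 0.763) and SERPINA1 (0.18, 0.804) did not pass. SPINK6 had 3 reads in MCF10A replicate 1 and SPINK9 had none.

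Of the 8 genes for substrates and receptors, 6 were tested and 4 fell, with a median log2 fold change of -2.24, where 5.95% of all tested genes fell. DSG3, a desmoglein of basal squamous cells, had 220 and 362 CPM in MCF10A cells against 3.42 and 2.59 CPM in G12V cells, 96.6-fold lower (log2 fold change -6.59, SE 0.37, adjusted p = 0.000788). F2RL1 encodes PAR2, a receptor that trypsin-like kallikreins cleave, and went from 106 ± 23.1 to 20.5 ± 0.654 CPM (SD, n = 2 each; log2 fold change -2.37, SE 0.22, adjusted p = 0.00334). F2R, the gene of PAR1, had 54.0 and 172 CPM in MCF10A cells against 14.5 and 23.6 CPM (log2 fold change -2.57, SE 0.57, adjusted p = 0.0414). The MCF10A libraries of F2R differed widely from each other, yet both lay above the G12V libraries. CDSN, corneodesmosin, went from 33 and 40 reads to 7 and 10 (log2 fold change -2.12, SE 0.45, adjusted p = 0.0350) and lost its call when any 1 library was left out and with DESeq2. DSC1 (log2 fold change 0.19, adjusted p = 0.879) and FLG (-0.30, 0.759) did not pass. DSG1, a desmoglein that KLK5 cleaves, had 0 and 2 reads in MCF10A cells and none in G12V cells, and CAMP had none. In all, 10 of the 19 tested genes of these lists fell, and none was called without MCF10A replicate 1. The replicate block gave 12, with SPINT1 (adjusted p = 0.000428) and A2ML1 (adjusted p = 0.0316) added. Among the 10 genes called without the block, KLK14, SPINK5 and CDSN passed the filter through MCF10A cells, so a fall was nearly the only call open to them. The part of the lower basal epithelial markers in these differences was not tested.

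**Figure D2:**
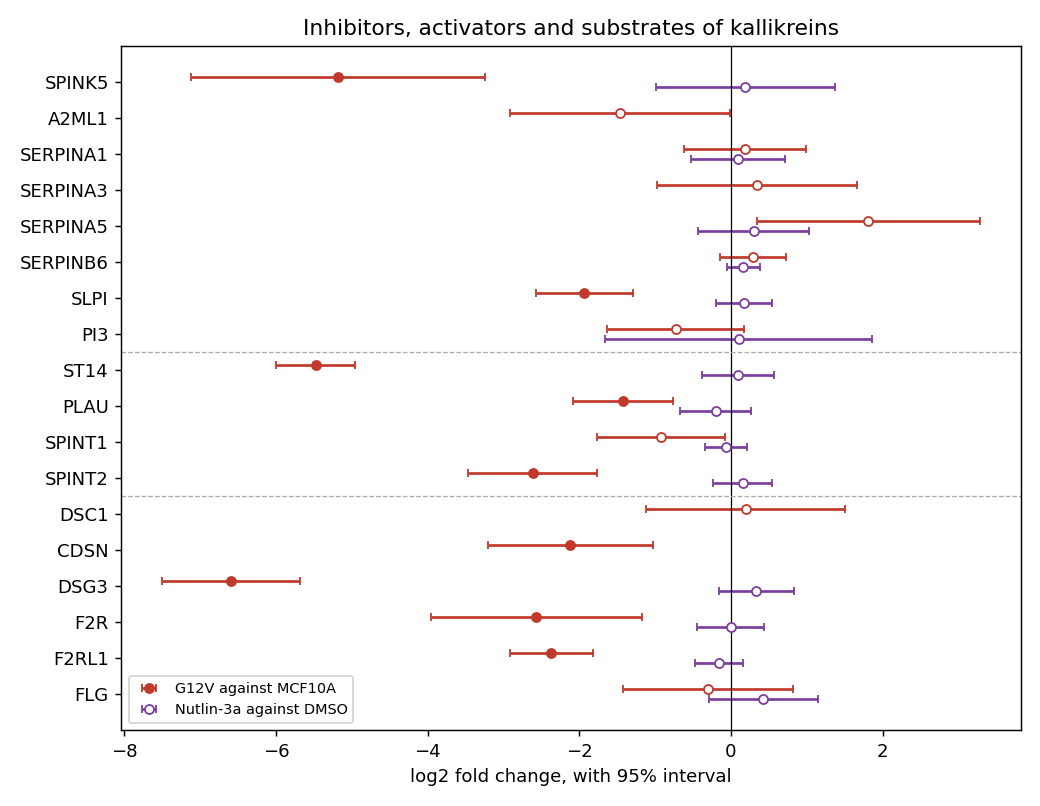
Log2 fold change with its 95% interval (x axis) of the tested inhibitors, activators and substrates (rows, separated by dashed lines) in G12V against MCF10A cells (red) and Nutlin-3a against DMSO (purple); filled points passed the test. ST14 (-5.48) and DSG3 (-6.59) lie farthest from 0 in G12V cells together with SPINK5 (-5.19), and the purple points, all open, lie between -0.20 and 0.43.

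Genes around the cluster showed no common direction. Within 500 kb on either side of the members 47 genes were counted and 13 tested, 7 with a fold change above 0 and 6 below, and the median log2 fold change was 0.06. JOSD2 fell from 29.5 ± 2.81 to 14.5 ± 2.22 CPM (SD, n = 2 each; log2 fold change -1.02, SE 0.23, adjusted p = 0.0451), and KLK14 fell as described. CLEC11A, a secreted growth factor gene, rose from 0.802 ± 0.299 to 4.18 ± 0.650 CPM (SD, n = 2 each; log2 fold change 2.37, SE 0.43, adjusted p = 0.0221). SHANK1, a scaffold gene of synapses, had no reads in either MCF10A library and 577 and 533 reads in the G12V libraries, at least 180-fold higher against 3 counts per library. It passed the filter through G12V cells, so a rise was the only call open to it. CTU1, next to KLK14 on the far side from the cluster, had 14.1 ± 1.36 and 14.8 ± 3.78 CPM (SD, n = 2 each), with an interval of the log2 fold change from -0.62 to 0.74. The widening of the window to 1 Mb left 31 tested genes and the same median.

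**Figure D3:**
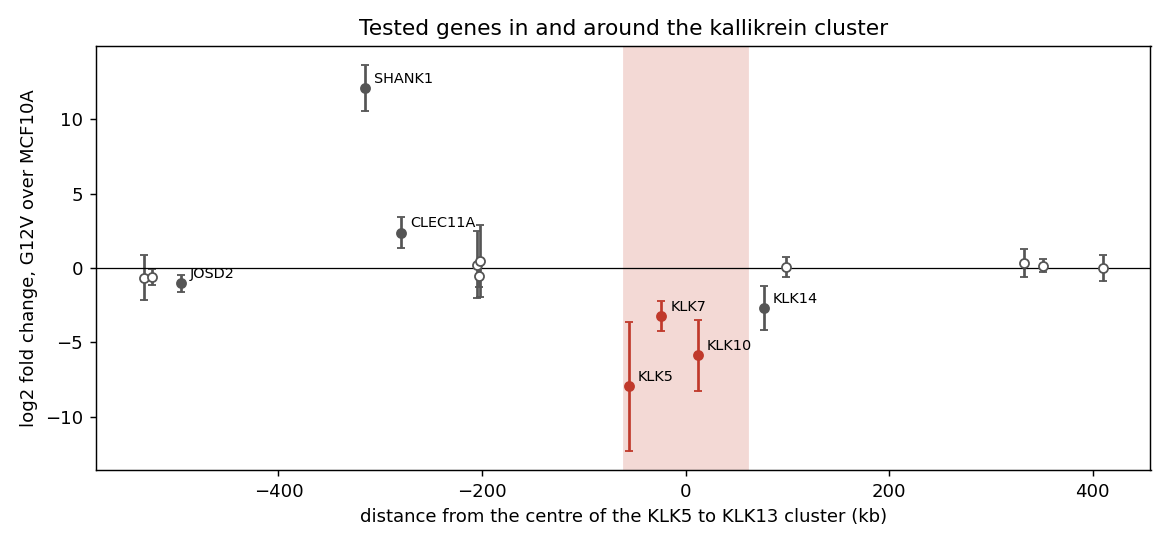
Log2 fold change in G12V against MCF10A cells with its 95% interval (y axis) of every tested gene by its distance from the centre of the KLK5 to KLK13 stretch in kb (x axis, shaded over the cluster); members are red, neighbours grey, and filled points passed the test. KLK5, KLK7, KLK10 and KLK14 lie below 0 while SHANK1 and CLEC11A lie above it, and the points of SHANK1 and KLK5, each without reads in 1 group, depend on the small count that edgeR adds before taking logs.

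In the Nutlin-3a experiment the members had too few reads to be tested. All 9 together had 42, 2 and 4 reads in the DMSO libraries and 40, 4 and 2 in the Nutlin-3a libraries, by replicate number. That is 2.32, 0.123 and 0.233 CPM with DMSO and 2.46, 0.248 and 0.132 CPM with Nutlin-3a. The replicate 1 libraries thus held 82 of the 94 kallikrein reads (87.2%), whichever the treatment. Inside each replicate number the 95% Poisson intervals of DMSO and Nutlin-3a overlapped. The MCF10A cells of DMSO replicates 2 and 3 held less than the G12V libraries of the first experiment (0.556 and 0.446 CPM). The 2 experiments were counted on different annotations, so this difference was not tested.

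The same held gene by gene. KLK5 had 8 reads with DMSO and 16 with Nutlin-3a in replicate 1, and no reads in the other 4 libraries. KLK7 had 11, 0 and 0 reads with DMSO and 6, 1 and 0 with Nutlin-3a. KLK10 had 8, 1 and 2 reads with DMSO and 11, 0 and 2 with Nutlin-3a. The groups overlapped for each of these genes, and replicate 1 was the highest of its group. KLK8 had 6, 0 and 0 reads against 4, 3 and 0. KLK11 had 3, 0 and 2 reads against 1, 0 and 0, and KLK6 had 2, 1 and 0 against 1, 0 and 0. KLK9 and KLK13 had 2 reads each in DMSO replicate 1, KLK9 had 1 in Nutlin-3a replicate 1, and KLK12 had none.

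None of the members was called in this experiment, where Nutlin-3a changed 0.17% of the 13529 tested genes. When every gene with a read was tested by edgeR's quasi-likelihood test, 8 members entered, none was called and none had an unadjusted p under 0.05. DESeq2 and edgeR's exact test were run on the filtered genes, which held no member. The fit with neither a filter nor the replicate block gave 95% intervals of the log2 fold change. They ran from -0.41 to 2.56 for KLK5, from -2.16 to 1.15 for KLK7 and from -1.10 to 1.79 for KLK10. That fit called 99 genes in place of 23. By the same quasi-likelihood test the adjusted p of MDM2 was 5.22e-52 there, against 0.00133 with the filter. Its intervals may therefore be too narrow for genes with so few reads.

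Unlike the members, some partner genes had enough reads to be tested in the Nutlin-3a experiment. Of 14 tested inhibitors, activators, substrates and receptors, none was called by edgeR's quasi-likelihood test, its exact test or DESeq2. None had an unadjusted p under 0.05 by these 3 tests, which left out the pairing by replicate number. With the replicate block none of the 14 was called by the quasi-likelihood test. The median log2 fold changes were 0.17 for 6 inhibitors, 0.01 for 4 activators and their inhibitors and 0.16 for 4 substrates and receptors, beside 0.0066 over all genes. ST14 had 278 ± 56.0 CPM with DMSO and 296 ± 79.1 with Nutlin-3a (SD, n = 3 each; 95% interval of the log2 fold change -0.39 to 0.57). SPINK5 had 59, 14 and 25 reads with DMSO and 53, 21 and 28 with Nutlin-3a. The 7 tested neighbours within 500 kb held no call and none with an unadjusted p under 0.05, by the same 3 tests.

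**Figure D4:**
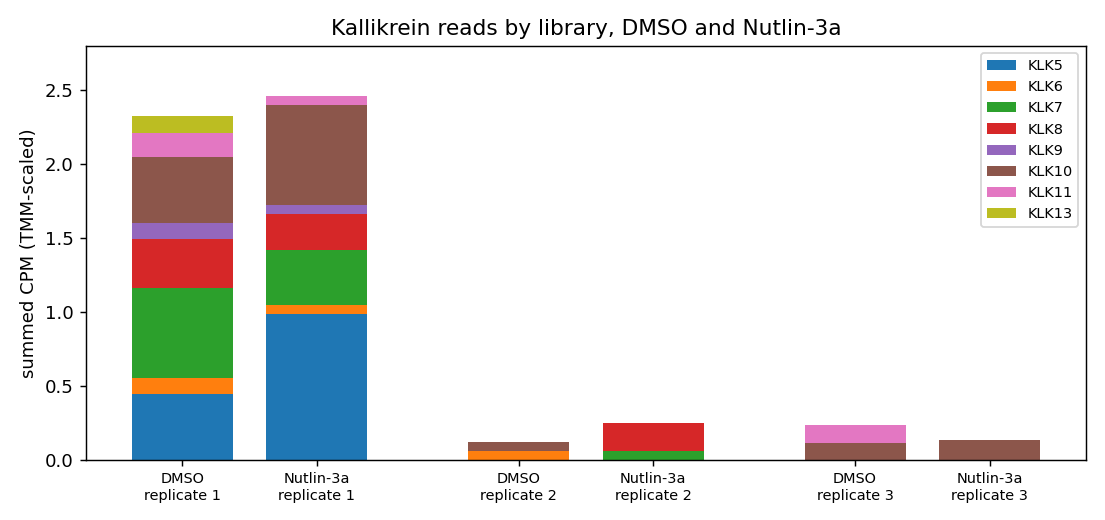
Summed level of the kallikrein members in CPM (y axis, from 0) in the 6 libraries of the Nutlin-3a experiment, ordered by replicate number, with each member as a coloured block of the bar. Both replicate 1 bars stand at 2.32 and 2.46 CPM, and the other 4 lie between 0.123 and 0.248 CPM.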

How the data were processed

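Poly(A) RNA was sequenced from MCF10A, G12V, DMSO and Nutlin-3a cells. The authors used TopHat for alignment to hg19 and HTSeq for counting, and deposited raw read counts, 1 table per experiment. Each table has its own annotation, which the sources used here do not name, so levels were tested within tables only. No column was left unmapped.

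From the counts, each table was filtered with filterByExpr, scaled by TMM and fitted by group with edgeR 4.0.16 (quasi-likelihood F-test, Benjamini-Hochberg adjustment over all tested genes, R 4.3.3, limma 3.58.1). CPM use TMM-scaled library sizes, and log2 fold changes edgeR's default prior count. Genes were called at an adjusted p below 0.05 where the log2 fold change was larger than 0.5 in size. The fits were tested on simulated data. The study's methods call the replicates biological without saying how they were grown. Reads carry no molecular identifiers. The Poisson intervals, the counting intervals and the limits for genes without reads cover counting error only. The intervals of the log2 fold changes come from the quasi-likelihood fit, which also models the spread between libraries.

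The members, lists and tests were chosen with earlier results of these data known. The genes named are the members, the fixed lists of partners and markers, called neighbours and label checks. The rule also asked for genes correlated with members tested in both experiments, and none was. Promoters and exon lengths came from GRCh37 and GENCODE, the promoters being 250 bases before the gene start, and windows of 50 bases were matched to all other genes' transcripts. The alternatives tried were edgeR's exact test, DESeq2 1.42.0, 3 other scalings, a replicate block, no filter, more than 1 CPM in at least 2 libraries, a prior count of 2, and omission of each library. With Nutlin-3a, same-numbered libraries deviated together from their groups (r = 0.62, 0.60 and 0.64) and others did not (r = -0.47 to -0.19), so the numbers pair them. Python 3.11.15 was used for summaries.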

Additional observations from a re-analysis of the deposited data

How the results depend on the processing

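In G12V against MCF10A cells 2 or 3 members were called under 12 of the 13 alternatives, with 2 under the CPM filter, no filter and upper-quartile factors. Leaving out 1 library gave 0 to 3 called members and 0 to 9 partner genes called lower, beside 10 with all libraries, the 0 in both cases without MCF10A replicate 1. The count of partner genes called higher went from 0 to 1 (SERPINA5) with DESeq2, the exact test, the replicate block and without G12V replicate 1, so leaving out 1 library gave 0 to 1. The cause was not tested. The Nutlin-3a comparison called 0 members under all 15 alternatives, but members were tested only under the alternative without a filter, so the other counts say nothing of stability. The ratio of summed kallikrein CPM, Nutlin-3a over DMSO, was 1.06 and was 1.07 without the replicate 1 pair, an alternative chosen after seeing the data. Without that pair the ratio rests on 2 and 4 reads with DMSO and 4 and 2 with Nutlin-3a, too few to show an unchanged level.

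With the replicate block the G12V fit called the 3 members and 4158 genes in place of 1575, and the Nutlin-3a fit 0 members and 165 genes in place of 23. In the G12V experiment deviations of same-numbered libraries correlated at 0.49 with only 2 pairs, so the numbers are not known to pair these libraries. In the G12V fit the block lost no call among the named genes and added SPINT1, A2ML1 and SERPINA5 among the partners, EMC10 and C19orf48 among the neighbours, and CDKN1A, LAMB3, KRT18, VIM and COL1A1. In the Nutlin-3a fit it changed no call among the named genes. Depth limits the members, since 6 of the 9 in G12V against MCF10A cells and all 9 with Nutlin-3a had too few reads to be tested.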

Other observations

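The replicate 1 pair of the Nutlin-3a experiment, DMSO replicate 1 and Nutlin-3a replicate 1, carried more than the kallikrein reads. Of the 17770 genes with at least 10 reads over the 6 libraries, 63 (0.355%) had at least 75% of their CPM in that pair, against a median share of 33.4%. KLK5, KLK7, KLK8 and KLK10, the 4 members with at least 10 reads, were among them. The limit of 75% was set after the values were seen, so these genes are described and not tested.

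The genes described next were picked from the 63 after their values were seen. KRT16, a keratin of stressed and hyperproliferative epidermis, had 1589, 100 and 152 reads with DMSO and 1406, 96 and 128 with Nutlin-3a. SPRR1B, a precursor of the cornified envelope, had 654, 22 and 111 reads against 493, 21 and 96. S100A7, psoriasin, had 373, 3 and 10 reads against 338, 14 and 14. KRT6C had 381, 4 and 5 reads against 298, 2 and 7, and KRT1, a keratin of suprabasal epidermal cells, had 29, 0 and 0 against 17, 0 and 0. PAPPA2, a metalloproteinase that cleaves IGF-binding proteins, had 498, 36 and 37 reads against 723, 38 and 34.

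A2ML1 and DSG1, from the lists of inhibitors and substrates, showed the same split. A2ML1, which inhibits proteases in differentiating epidermis, had 166, 1 and 0 reads with DMSO and 161, 2 and 1 with Nutlin-3a, and DSG1 had 6, 0 and 0 reads against 16, 0 and 0. SPINK5 (54.4% of its CPM in the pair), PI3 (65.0%) and KLK1 (45.4%) stayed under the limit. None of the 7 basal markers passed it, and KRT5 had 36.0% and TP63 39.9% of their CPM in the pair. DCN, a matrix proteoglycan gene, went the other way, with 233 and 229 reads in the pair and 1620 to 2208 in the other 4 libraries.

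In the other experiment 17 of the 63 genes were tested, and 9 were lower and 2 higher in G12V cells. Of all 14376 tested genes 5.95% were lower and 5.01% higher. KLK5, KLK7 and KLK10 are 3 of the 9 and passed the filter on low counts through their reads in MCF10A cells. The rest of the 9 had means of at most 19.1 CPM in MCF10A cells and log2 fold changes of -5.77 or lower, so they did too. A fall was nearly the only call open to the 9, so their number is not a result about the 63 genes as a set. KRT16 had a log2 fold change of -5.93 (adjusted p = 0.00779) and SPRR1B of -7.67 (adjusted p = 0.00455), both by the edgeR test. The cause of the split between replicate numbers was not tested.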
